A study of Mus musculus with 18 samples.

Results

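The genes described here are 60 of the 23337 gene rows of an RNA-seq count table of mouse exorbital lacrimal glands (LGs), namely the receptors, adaptors and caspases of innate immune sensing. They were taken by name: every Toll-like receptor (TLR), every NLRP gene, Nod1 and Nod2, every numbered Naip gene, and a fixed set of other sensors and signalling partners. By role they comprise 5 TLRs of the cell surface, 7 endosomal TLRs, 9 TLR adaptors and kinases, 4 NOD receptors and regulatory NLRs, 14 inflammasome sensors, 3 inflammasome adaptor and caspase genes, 6 genes of cytosolic RNA and DNA sensing and 12 other NLRP genes. For 1 further name, Mb21d1, the table has no row under that symbol. The study followed LGs of male NOR/LtJ mice, a Sjogren's disease model, against male BALB/cJ mice, which served as its healthy control. Mice of both strains were 3, 8 or 16 weeks old, ages the submitters describe as before, at the onset of and further into disease, and each of the 6 groups had 3 libraries. Each library of 8 and 16 weeks was a pool of 2 to 3 mice, and those of 3 weeks are not described as pooled. Strain here means the whole genetic background, since no gene was altered, so disease and other differences between the strains cannot be told apart. The sample titles name the diseased strain NOD and the genotype label NOR/LtJ, and NOR is used here.

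TLRs detect microbial lipids, proteins and nucleic acids at the cell surface or, for those that read nucleic acids, inside endosomes, and signal through the adaptors Myd88 and Ticam1. NLR proteins, Aim2 and the RIG-I-like receptors work in the cytosol, where some assemble inflammasomes that activate caspases and others lead to type I interferon. In Sjogren's disease and related autoimmune disorders, endosomal TLRs have long been studied because they can respond to the host's own nucleic acids, and interferon-stimulated genes as a readout of interferon.

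Total counts ran from 6378613 to 20493076 per library with a median of 15202570, and values are given as CPM, the count of a gene relative to the total of its library, with totals scaled by the TMM method of edgeR. A count of 3 in 1 library corresponds to 0.118 to 0.527 CPM, and differences among values near that level were not detectable at this depth. Several libraries stood apart in parotid gland transcripts, the 5 markers of which summed to 54000 and 54300 CPM in NOR replicates 2 and 3 of 3 weeks, 11900 CPM in BALB/c replicate 2 of 3 weeks and 14500 CPM in NOR replicate 2 of 8 weeks, against 1.26 to 6170 CPM in the other 14 libraries. Results that passed a test at 3 weeks are therefore also given without those 3 libraries of that age, a fit which leaves a lone NOR library whose spread is assumed to be that of the other groups. The summed CPM of the 10 LG epithelium markers, which mark the labelled tissue, was lower in NOR at each age without overlap. In libraries of 3 weeks it ran from 1630 to 1790 CPM in NOR and from 1950 to 2040 CPM in BALB/c. For 8 weeks the ranges were 1360 to 1470 against 1920 to 2110 CPM, and for 16 weeks 955 to 1390 against 1700 to 1850 CPM. A sum is weighted towards its most abundant markers, and single markers went both ways at 8 and 16 weeks, as given below. The sum therefore does not show that the epithelium as a whole was lower in NOR at any age.

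Many of the measurable sensors were higher in NOR than in BALB/c LGs at 8 and 16 weeks, while few of them differed at 3 weeks. Of the 40 members that passed the low-count filter, 22 were called higher and 0 lower in NOR at 8 weeks, and 24 were called higher and 0 lower at 16 weeks, against 1 higher and 1 lower at 3 weeks. A gene was called where edgeR's quasi-likelihood test gave an adjusted p no higher than 0.05 and the strains differed by 1 or more on the log2 scale. Over all 13376 genes tested, 11.6% were called at 8 weeks (8.93% higher and 2.65% lower), 19.4% at 16 weeks (14.1% higher and 5.22% lower) and 5.26% at 3 weeks (3.54% higher and 1.71% lower). The median log2 fold change of the 40 members was 0.17 at 3 weeks, 1.22 at 8 weeks and 1.74 at 16 weeks, beside 0.01, 0.02 and -0.01 for all genes. Because 11 of the 40 members reached the filter level in fewer than 3 BALB/c libraries, and so passed only through the strain in which they were high, neither their calls nor these medians are separate support. These 11 were Aim2, Casp4, Naip2, Naip5, Nlrc4, Nlrp1a, Nlrp3, Ticam2, Tlr9, Tlr11 and Tlr12. Of the 29 others 13 were higher at 8 weeks and 13 at 16 weeks, and for 3, 8 and 16 weeks their median log2 fold changes were 0.11, 0.76 and 0.62. The members called higher at both ages numbered 21. By adjusted p alone, 3 members were higher and 2 lower at 3 weeks (1 and 1 without the parotid-rich libraries), 27 higher and 1 lower at 8 weeks, and 30 higher and 5 lower at 16 weeks. Of all genes, 15% passed that test at 3 weeks (7.95% higher, 7.01% lower), 27.8% at 8 weeks (16.4% higher, 11.4% lower) and 50.9% at 16 weeks (25.5% higher, 25.4% lower). In such whole-gland libraries, more cells of a type and more RNA per cell cannot be told apart.

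**Figure D1:**
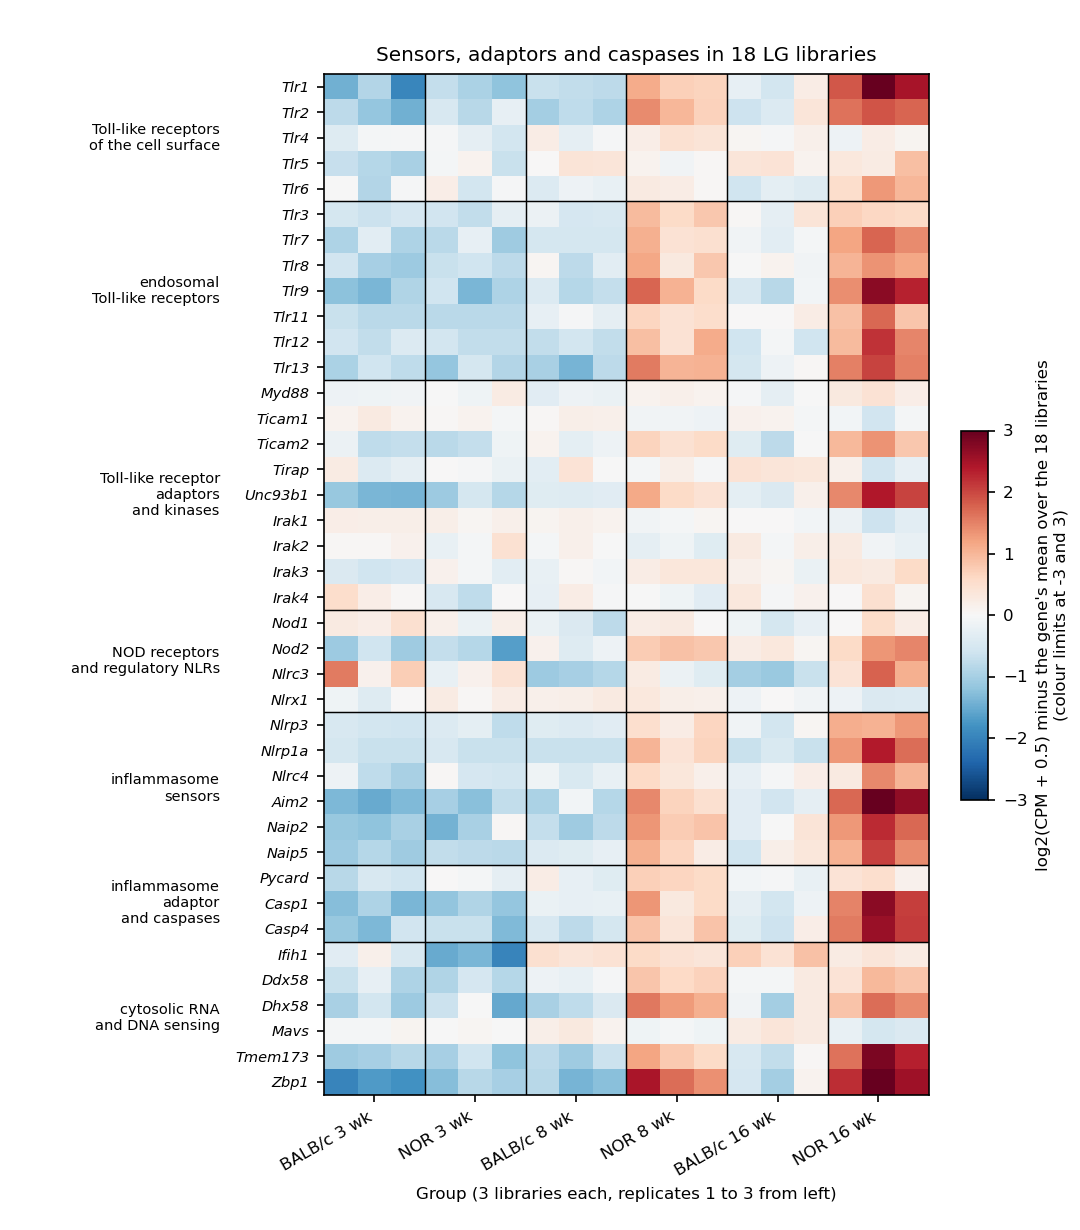
Level of the 40 tested members in each of the 18 libraries, as log2(CPM + 0.5) minus the mean of the gene over all libraries, with genes grouped by role and libraries by group. The NOR columns of 8 and 16 weeks are red for most receptors, sensors and caspases, and Irak1, Ticam1, Tirap, Mavs and Nlrx1 are pale throughout.

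Markers of leukocytes moved with these genes. All 5 B cell and all 6 measured T cell markers were called higher in NOR at both 8 and 16 weeks, and so were 5 and 6 of 6 dendritic cell markers and 3 and 4 of 5 macrophage markers. Summed B cell markers ran from 0 to 0.395 CPM in BALB/c and from 5.77 to 19.3 CPM in NOR at 8 weeks, and from 0.381 to 4.56 CPM in BALB/c and from 109 to 360 CPM in NOR at 16 weeks. For T cell markers the ranges were 0.559 to 1.02 and 10.2 to 26.5 CPM at 8 weeks, then 0.998 to 1.83 and 55.2 to 134 CPM at 16 weeks. Dendritic cell markers summed to 1.12 to 2.76 CPM in BALB/c and 10.8 to 22.4 CPM in NOR at 8 weeks, and to 4.19 to 6.29 and 27.7 to 63.0 CPM at 16 weeks. Macrophage markers differed less, from 38.9 to 55.6 CPM in BALB/c and from 82.9 to 116 CPM in NOR at 8 weeks, and from 52.7 to 64.4 and 104 to 148 CPM at 16 weeks. None of these markers was at 0 in every library, and their part in the results below was not tested. The 5 NK cell markers were likewise all called higher at both ages, whereas the counts called higher at 16 weeks were 1 of 4 for plasma cell markers, 2 of 5 for plasmacytoid dendritic cell markers, 1 of 5 each for endothelial and adipocyte markers, and 0 of 6 for mast cell (1 lower), 0 of 5 for skeletal muscle (2 lower), 0 of 5 for parotid and 0 of 10 for LG epithelium markers. By adjusted p alone, 4 of the 10 LG epithelium markers were lower and 1 higher in NOR at 16 weeks, and 2 were lower and 3 higher at 8 weeks. Neutrophil markers stayed at or under 5.80 CPM in sum, and the only one tested was called higher at 8 and at 16 weeks. Of the 24 members called higher at 16 weeks, NOR replicate 2 was the highest NOR library for 22 and replicate 1 was the lowest for 20. Replicate 2 held the most B cell, T cell, dendritic cell, NK cell and macrophage markers of the NOR libraries of that age, and replicate 1 the fewest. Replicate 2 also held the fewest LG epithelium markers. Among BALB/c libraries of 16 weeks, replicate 3 held the most B cell markers and was the highest for 19 of these 24. The share of all called genes with the same library order is not given, so this order is not shown to be particular to the members.

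**Figure D2:**
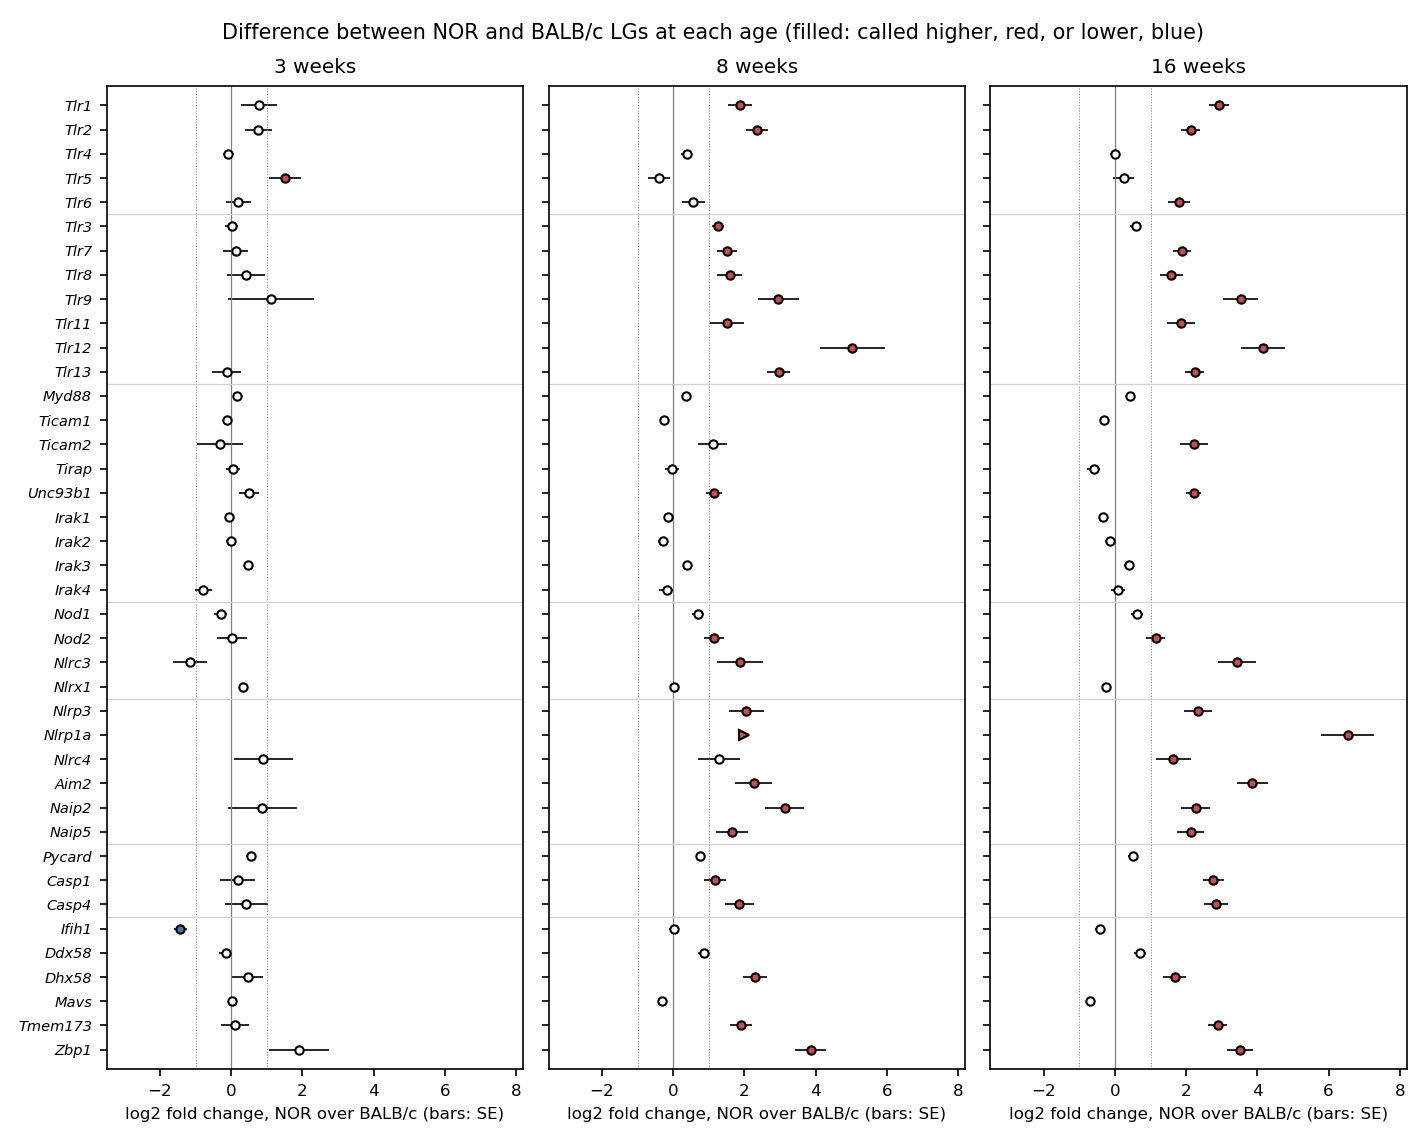
Log2 fold change of NOR over BALB/c with its standard error for the 40 tested members at 3, 8 and 16 weeks, where filled points were called, dotted lines mark an absolute log2 fold change of 1, a triangle is a lower bound against a group with 0 counts, and members at the level of 3 counts per library in both strains are left out. Only Tlr5 and Ifih1 are filled at 3 weeks, and points sit mostly right of the upper dotted line at 8 and 16 weeks except among the adaptors and kinases.

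The surface receptors split into those of bacterial lipopeptides, which were higher in NOR, and the receptors of lipopolysaccharide and flagellin, which were not called at 8 or 16 weeks. Tlr1 and Tlr6, each of which pairs with Tlr2, and Tlr2 itself were called higher at 16 weeks, and Tlr1 and Tlr2 also at 8 weeks. Tlr1 (mm10 chr5:64924834-64932699, minus strand) read 11, 26 and 17 CPM in the 3 NOR libraries of 16 weeks and 2.19, 1.67 and 3.17 CPM in those of BALB/c. At 8 weeks it read 6.39, 4.71 and 4.52 CPM in NOR and 1.49, 1.4 and 1.35 CPM in BALB/c. The strains did not overlap at either age, with a log2 fold change of 1.88 ± 0.342 (SE; adjusted p = 0.000346) at 8 weeks and 2.92 ± 0.294 (adjusted p = 1.95e-07) at 16 weeks. At 3 weeks they did overlap, at 1.43, 1.14 and 0.879 CPM in NOR and 0.657, 1.21 and 0.317 CPM in BALB/c. Tlr2 (mm10 chr3:83836272-83841608, minus strand) read 9.11, 10.9 and 9.89 CPM in NOR and 1.52, 1.83 and 3.46 CPM in BALB/c at 16 weeks. It had already been 7.74, 5.64 and 4.52 CPM against 1.02, 1.33 and 1.13 CPM at 8 weeks. Its difference was 2.35 ± 0.301 (adjusted p = 9.68e-06) and 2.12 ± 0.263 (adjusted p = 2.34e-06) on the log2 scale. Tlr6 was called only at 16 weeks (1.80 ± 0.302, adjusted p = 6.81e-05), after 0.57 ± 0.317 at 8 weeks (adjusted p = 0.198).

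Tlr4, the lipopolysaccharide receptor, was not called at any age. Its means were 8.85 ± 1.18 CPM (SD, n = 3) in NOR and 8.87 ± 0.612 CPM in BALB/c at 16 weeks, a log2 fold change of 0.00 ± 0.15 with an approximate 95% interval from -0.29 to 0.30. At 8 weeks the value was 0.38 ± 0.15 (adjusted p = 0.0667). Tlr5, the flagellin receptor, was the member called higher in NOR at 3 weeks, with 0.786, 0.951 and 0.352 CPM in NOR and 0.328, 0.242 and 0.19 CPM in BALB/c. The lowest NOR library lay just above the highest BALB/c library, for a log2 fold change of 1.51 ± 0.44 (adjusted p = 0.0248), at counts close to the floor. The call was lost without NOR replicate 1 (adjusted p = 0.0871) or 2 (0.124) or BALB/c replicate 2 (0.0604) or 3 (0.0988), and without the 3 parotid-rich libraries the log2 fold change was 1.54 (adjusted p = 0.164). With DESeq2 its adjusted p was 0.0742. By 8 and 16 weeks Tlr5 read 0.865, 1.26 and 1.24 CPM and 1.24, 1.29 and 0.961 CPM in BALB/c, beside 0.938, 0.744 and 0.881 CPM and 1.17, 1.1 and 2.02 CPM in NOR, and the strains overlapped.

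Every endosomal TLR was called higher in NOR at 8 weeks, and all but Tlr3 were called again at 16 weeks, while at 3 weeks none of the 7 was called. Of the 7, Tlr9, Tlr11 and Tlr12 passed the low-count filter only through NOR, so their calls are not separate support. Tlr7, a receptor of single-stranded RNA (mm10 chrX:167304931-167330528, minus strand), read 4.81, 2.91 and 3 CPM in NOR and 1.26, 1.26 and 1.24 CPM in BALB/c at 8 weeks. At 16 weeks it read 5.25, 8 and 6.27 CPM and 1.85, 1.52 and 1.92 CPM. Its log2 fold change was 1.51 ± 0.283 (adjusted p = 0.000458) and 1.88 ± 0.256 (adjusted p = 7.11e-06), respectively, and at 3 weeks the strains overlapped at 0.929, 1.62 and 0.703 CPM and 0.821, 1.53 and 0.823 CPM. Tlr8, its close relative, was also called at both ages, with 1.59 ± 0.35 (adjusted p = 0.00193) and 1.58 ± 0.319 (adjusted p = 0.000422).

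Tlr9, the receptor of DNA rich in unmethylated CpG, was scarce as mRNA in BALB/c LGs, where the paper nonetheless reports staining of its protein. It read 2.9, 7.96 and 5.95 CPM in NOR and 0.428, 0.228 and 0.721 CPM in BALB/c at 16 weeks. At 8 weeks the values were 3.87, 2.17 and 1.41 CPM and 0.472, 0.21 and 0.282 CPM. The strains were apart at both ages, with log2 fold changes of 2.95 ± 0.575 (adjusted p = 0.000661) and 3.53 ± 0.492 (adjusted p = 9.02e-06). The gene lies at mm10 chr9:106222598-106226876, plus strand, and its proximal promoter is shown because Tlr9 is among the members that moved together and carries the core of a site of PU.1, a transcription factor of B and myeloid cells. The 250 bases before its start in RefSeq (GRCm38.p6, chr9:106222348-106222597, plus strand) hold the letters GAGGAAG, in capitals, beginning 112 bases before the start.
Tlr9: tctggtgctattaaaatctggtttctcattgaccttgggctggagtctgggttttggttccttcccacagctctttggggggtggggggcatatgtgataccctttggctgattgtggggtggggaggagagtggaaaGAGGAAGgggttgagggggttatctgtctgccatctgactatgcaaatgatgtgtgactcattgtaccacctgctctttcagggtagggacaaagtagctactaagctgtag
The search was for GAGGAAG on both strands in windows of 300 bases, from 250 before the start to 50 after it. For 42 members the RefSeq start lay within 50 bases of the start used in the count table. The letters were in 10 of these 42 (23.8%) and in 13.6% of all 32851 windows. They were in 5 of the 14 members with such a window that were called higher at both 8 and 16 weeks. These are letters in a window, not measured sites.

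Tlr13, a receptor of bacterial ribosomal RNA (mm10 chrX:106143275-106160493, plus strand), had the smallest p of the endosomal group at 8 weeks. It read 6.04, 4.03 and 4.11 CPM in NOR and 0.629, 0.35 and 0.79 CPM in BALB/c, and at 16 weeks 5.87, 8.55 and 5.85 CPM and 1.05, 1.52 and 1.78 CPM. The lowest NOR library exceeded the highest BALB/c library at both ages, with log2 fold changes of 2.96 ± 0.313 (adjusted p = 1.03e-06) and 2.24 ± 0.264 (adjusted p = 1.25e-06). Tlr3, the receptor of double-stranded RNA (mm10 chr8:45395665-45410539, minus strand), was the endosomal TLR with the highest level in BALB/c and the smallest difference. It read 13.5, 10.3 and 12.2 CPM in NOR and 5.9, 4.54 and 4.63 CPM in BALB/c at 8 weeks, then 11.3, 10.6 and 10.2 CPM and 6.89, 5.48 and 8.89 CPM at 16 weeks. It was called at 8 weeks (1.26 ± 0.163, adjusted p = 1.07e-05), whereas at 16 weeks 0.58 ± 0.156 (adjusted p = 0.0043) fell short of the size required. The test of the change between these ages gave -0.68 ± 0.226 (adjusted p = 0.0677).

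Tlr11 and Tlr12, which together recognise protozoan profilin, were scarce. Tlr12 had 1 count in all 3 BALB/c libraries of 8 weeks together and 50 in those of NOR, a ratio of 44.6 per library size with an exact 95% counting interval from 7.64 to 1795. Intervals of this kind cover counting error only. At 16 weeks the NOR libraries read 1.1, 3.22 and 1.81 CPM and the BALB/c libraries 0.0475, 0.304 and 0.048 CPM (log2 fold change 4.15 ± 0.614, adjusted p = 1.78e-05). Without BALB/c replicate 2, which held 4 of the 6 BALB/c counts, the 16-week value of Tlr12 was 5.24. Tlr11 was 2.83-fold higher at 8 weeks (adjusted p = 0.0259), with 0.88, 0.682 and 0.764 CPM in NOR and 0.236, 0.35 and 0.226 CPM in BALB/c, and its log2 fold change was 1.86 ± 0.392 at 16 weeks (adjusted p = 0.000772). The 8-week call of Tlr11 was lost without BALB/c replicate 1 (adjusted p = 0.0737) or 3 (0.096) or NOR replicate 1 (0.0873) or 3 (0.0512), and with DESeq2.

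**Figure D3:**
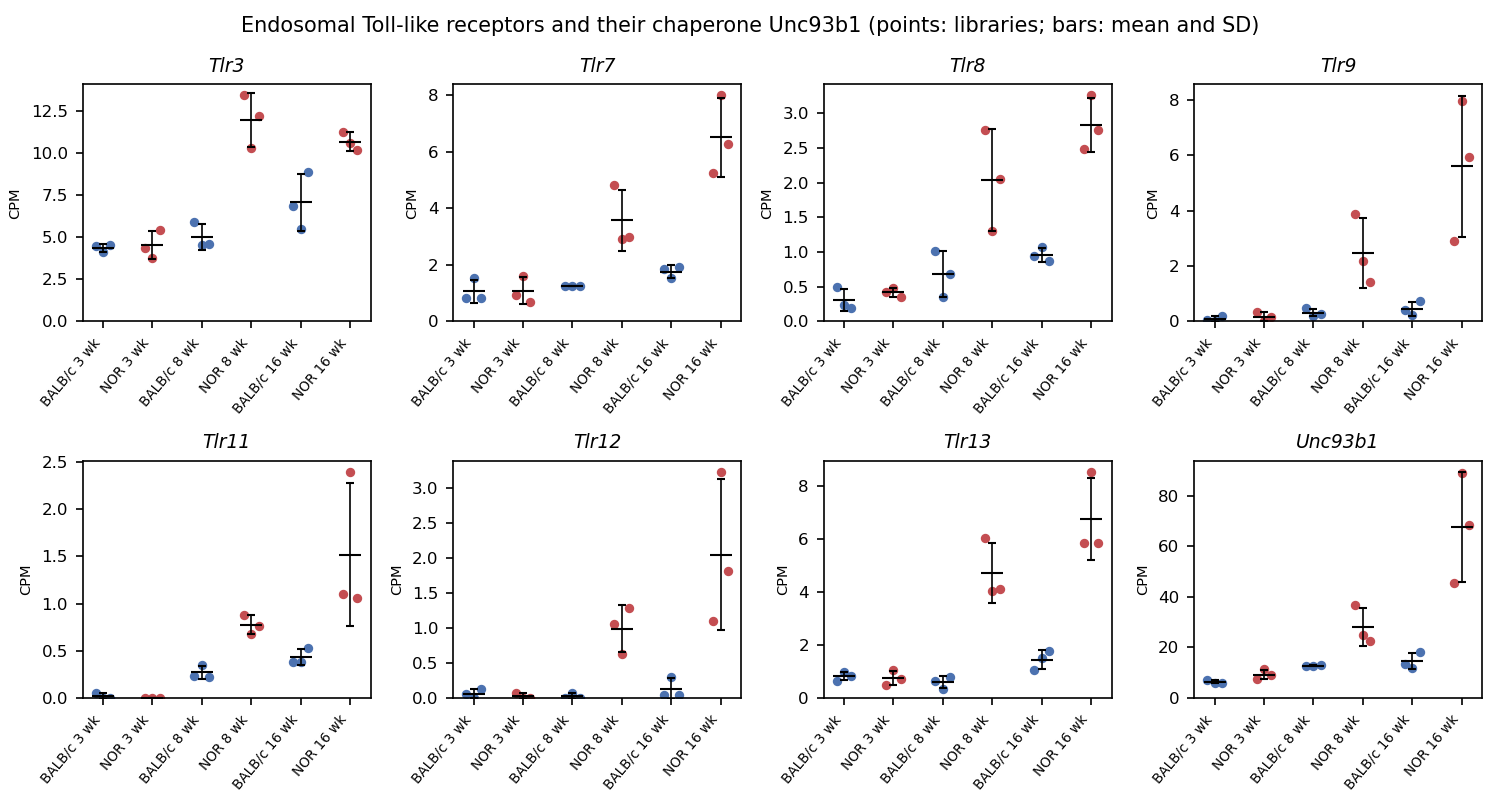
CPM of the 7 endosomal TLRs and Unc93b1 in each library (points) with the group mean and SD (bars), where BALB/c is blue and NOR red and every axis starts at 0. The red points of 8 and 16 weeks lie above the blue points of the same age in all 8 panels, and Unc93b1 reads 45.3 to 89.1 CPM in NOR at 16 weeks.

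Among the TLR adaptors and kinases, the chaperone and the bridging adaptor changed and the shared core did not pass the fold-change cutoff. Unc93b1, which carries the nucleic acid receptors from the endoplasmic reticulum to endosomes (mm10 chr19:3935186-3949340, plus strand), read 36.8, 24.8 and 22.6 CPM in NOR and 12.7, 12.5 and 12.9 CPM in BALB/c at 8 weeks. At 16 weeks it read 45.3, 89.1 and 68.6 CPM and 13.4, 12 and 18.3 CPM. No NOR library overlapped a BALB/c library at any of the 3 ages, including 3 weeks, where the log2 fold change of 0.50 ± 0.272 was not called (adjusted p = 0.247) and was 0.16 without the parotid-rich libraries. It was 1.14 ± 0.223 at 8 weeks (adjusted p = 0.000651) and 2.21 ± 0.216 at 16 weeks (adjusted p = 1.41e-07). Without NOR replicate 1 the 8-week value was 0.88 and fell under the cutoff. Ticam2, which links Tlr4 to Ticam1, was called at 16 weeks (2.21 ± 0.399, adjusted p = 0.000141) and not at 8 weeks (1.11 ± 0.414, adjusted p = 0.0526).

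Myd88, the adaptor of nearly all TLRs and of the interleukin-1 receptors, differed little. It read 16.2, 16.6 and 16 CPM in NOR and 11.7, 13.4 and 12.9 CPM in BALB/c at 8 weeks. At 16 weeks the values were 18.4, 20.4 and 17.1 CPM and 14.6, 12.2 and 14.8 CPM. The libraries did not overlap, yet the log2 fold changes were 0.36 ± 0.101 (adjusted p = 0.0122) and 0.43 ± 0.0985 (adjusted p = 0.00129). Ticam1, the adaptor of Tlr3 and of the endosomal arm of Tlr4, read 27.9, 19.9 and 28.5 CPM in NOR and 32.5, 32.2 and 28.6 CPM in BALB/c at 16 weeks and 27.4, 27.5 and 26.6 CPM and 30.6, 33.5 and 32.9 CPM at 8 weeks. NOR lay below BALB/c at both ages, with log2 values of -0.25 ± 0.107 (adjusted p = 0.0889) and -0.31 ± 0.108 (adjusted p = 0.0227). Irak1 and Tirap were lower at 16 weeks by adjusted p alone, at -0.35 ± 0.0951 (adjusted p = 0.00524) and -0.60 ± 0.186 (adjusted p = 0.0115). Without NOR replicate 2 of 16 weeks, the library with the lowest LG epithelium markers, adjusted p rose past 0.05 for Irak1, Tirap and Ticam1, and that of Ticam1 also without BALB/c replicate 1 or 2. The summed LG epithelium markers were lower in NOR at the same ages, and their part in these lower values and in those of Mavs was not tested. Irak3, a brake on TLR signalling, was higher by adjusted p alone at all 3 ages (0.48, 0.40 and 0.38 on the log2 scale at 3, 8 and 16 weeks). The kinase Irak4 was lower at 3 weeks by the same test (-0.78 ± 0.227, adjusted p = 0.0245), but neither Irak4 (adjusted p = 0.133) nor Irak3 (0.0586) passed at 3 weeks without the parotid-rich libraries, and Irak2 did not pass it at any age.

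Of the NOD receptors, which recognise fragments of bacterial peptidoglycan, Nod2 was called higher at 8 and 16 weeks and Nod1 at neither. Nod2 had log2 fold changes of 1.15 ± 0.289 (adjusted p = 0.00548) and 1.14 ± 0.272 (adjusted p = 0.00172), and without BALB/c replicate 2 the 8-week value stood at the cutoff and was not called. Nod1 was at 0.70 ± 0.18 (adjusted p = 0.00635) and 0.62 ± 0.173 (adjusted p = 0.00614). Nlrc3, a regulatory NLR known to restrain Sting and T cell signalling, was called higher at 8 and 16 weeks. Its level was 3.61, 1.05 and 1.84 CPM in BALB/c and 0.714, 1.05 and 1.41 CPM in NOR at 3 weeks, where the strains overlapped. At 16 weeks it was 0.19, 0.152 and 0.384 CPM in BALB/c and 1.38, 4.27 and 2.45 CPM in NOR. Its log2 fold change was -1.16 ± 0.487 at 3 weeks (adjusted p = 0.125), 1.87 ± 0.64 at 8 weeks (adjusted p = 0.0351) and 3.43 ± 0.527 at 16 weeks (adjusted p = 2.73e-05). The 8-week call was lost in 5 of 6 fits that left out 1 library (any BALB/c library, or NOR replicate 1 or 2), with adjusted p up to 0.151. Nlrx1, a mitochondrial NLR, did not pass the test at any age.

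All 6 inflammasome sensors that could be tested were called higher in NOR at 16 weeks and 5 of them at 8 weeks, although 6 of 6 reached the filter level in fewer than 3 BALB/c libraries. Aim2, which binds double-stranded DNA in the cytosol (mm10 chr1:173420604-173466036, plus strand), read 4.21, 13.3 and 8.4 CPM in NOR and 0.618, 0.457 and 0.673 CPM in BALB/c at 16 weeks. At 8 weeks it read 3.34, 1.74 and 1.47 CPM and 0.236, 0.839 and 0.282 CPM. The strains stood apart at both ages, with log2 fold changes of 2.26 ± 0.511 (adjusted p = 0.00236) and 3.86 ± 0.435 (adjusted p = 7.46e-07), and the 8-week value was 3.02 without BALB/c replicate 2. Like Tlr9, Aim2 holds the PU.1 core, here 113 bases before its start, which is why its promoter is shown (RefSeq, GRCm38.p6, chr1:173420354-173420603, plus strand, with the GAGGAAG letters in capitals).
Aim2: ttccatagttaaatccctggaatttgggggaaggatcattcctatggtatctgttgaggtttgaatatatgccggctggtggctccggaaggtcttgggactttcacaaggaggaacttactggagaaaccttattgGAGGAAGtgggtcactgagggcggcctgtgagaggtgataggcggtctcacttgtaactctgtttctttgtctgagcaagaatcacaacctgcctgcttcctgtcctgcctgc

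Nlrp1a (mm10 chr11:71091197-71144704, minus strand), an inflammasome sensor, had 0 counts in the 3 BALB/c libraries of 8 weeks and 41 in those of NOR, so it was at least 3.96-fold higher there when BALB/c is set to 3 counts per library. At 16 weeks 1 count was found in BALB/c and 133 in NOR, a ratio of 148 with an exact 95% counting interval from 26.1 to 5893. The NOR libraries read 1.11, 0.558 and 0.764 CPM at 8 weeks and 1.45, 3.65 and 2.02 CPM at 16 weeks, and the tests passed at both ages (adjusted p = 0.000227 and 1.43e-06). Nlrp1b, its near copy, stayed under the filter with 8 and 14 counts in BALB/c and NOR at 8 weeks and 18 and 54 at 16 weeks. Because reads that matched several places were not counted, the split of reads between Nlrp1a and Nlrp1b, and among the Naip genes, is uncertain. Nlrp3, which responds to many forms of cell damage, had log2 fold changes of 2.06 ± 0.491 (adjusted p = 0.00361) and 2.32 ± 0.396 (adjusted p = 8.19e-05). Its level was low even so, 1.31, 1.25 and 1.59 CPM in NOR and 0.285, 0.0761 and 0.384 CPM in BALB/c at 16 weeks.

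Naip2 and Naip5, which bind bacterial secretion and flagellar proteins, and their partner Nlrc4 all passed the low-count filter only through NOR. Naip2 was at 3.13 ± 0.551 (adjusted p = 0.000264) and 2.26 ± 0.418 (adjusted p = 0.000181) on the log2 scale at 8 and 16 weeks. Naip5 was at 1.65 ± 0.457 (adjusted p = 0.0105) and 2.12 ± 0.391 (adjusted p = 0.000173), and its 8-week call was lost without NOR replicate 1 (adjusted p = 0.076). Nlrc4 was called at 16 weeks (1.64 ± 0.501, adjusted p = 0.0102) and not at 8 weeks (1.29 ± 0.595, adjusted p = 0.118). The Nlrc4 call was lost without NOR replicate 2 (adjusted p = 0.123) or BALB/c replicate 1 (0.0533).

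Below the sensors, Casp1 and Casp4 were called higher in NOR and the adaptor Pycard was higher by adjusted p alone. Casp1, which cleaves pro-interleukin-1β and gasdermin D (mm10 chr9:5298517-5307281, plus strand), read 8.15, 19.5 and 12.5 CPM in NOR and 2.04, 1.6 and 2.26 CPM in BALB/c at 16 weeks. At 8 weeks it read 7.16, 3.29 and 4.05 CPM and 2.2, 2.1 and 2.14 CPM. The log2 fold change was 1.17 ± 0.313 at 8 weeks (adjusted p = 0.00829) and 2.76 ± 0.296 at 16 weeks (adjusted p = 4.13e-07), and the 8-week call was lost without NOR replicate 1, at 0.75 (adjusted p = 0.0946). Casp4, the caspase that binds cytosolic lipopolysaccharide (mm10 chr9:5308860-5336791, plus strand), read 4.49, 9.69 and 6.7 CPM in NOR and 0.808, 0.609 and 1.44 CPM in BALB/c at 16 weeks, after 2.58, 1.67 and 2.59 CPM and 0.708, 0.489 and 0.677 CPM at 8 weeks. The strains did not overlap, with log2 fold changes of 1.86 ± 0.405 (adjusted p = 0.00178) and 2.83 ± 0.345 (adjusted p = 1.88e-06). Pycard, the adaptor that joins sensors to Casp1, was higher by adjusted p alone at every age, with 0.56 ± 0.141 (adjusted p = 0.00995), 0.76 ± 0.13 (adjusted p = 0.000197) and 0.50 ± 0.13 (adjusted p = 0.0035) at 3, 8 and 16 weeks, and 0.72 at 3 weeks without the parotid-rich libraries (adjusted p = 0.0447).

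**Figure D4:**
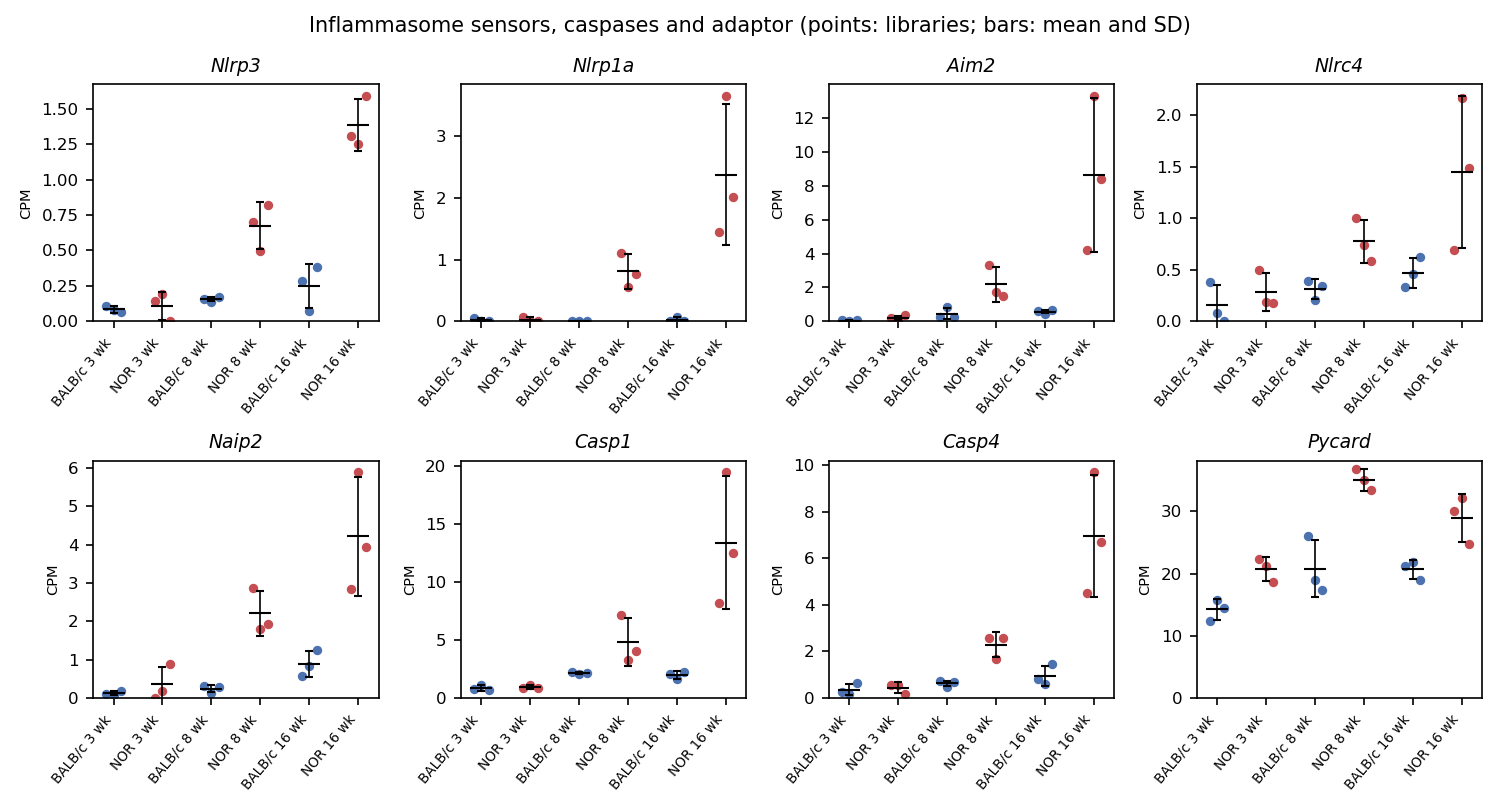
CPM of 5 inflammasome sensors, Casp1, Casp4 and Pycard in each library (points) with the group mean and SD (bars), where BALB/c is blue and NOR red and every axis starts at 0. Pycard is at 12.4 CPM or more in every library, whereas Nlrp1a is at or near 0 in all BALB/c libraries and reads 0.558 to 3.65 CPM in NOR at 8 and 16 weeks.

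Of the cytosolic pathways, the DNA pathway member Tmem173, the nucleic acid sensor Zbp1, Dhx58 and, by adjusted p alone, Ddx58 were higher in NOR at 8 and 16 weeks, and Ifih1 and Mavs were not. Tmem173, which encodes Sting, the adaptor of the cGAS pathway, had the smallest p of all members at 16 weeks. It read 13.1, 30.6 and 21.7 CPM in NOR and 2.66, 2.13 and 3.99 CPM in BALB/c at 16 weeks, and 9.5, 7.07 and 6.05 CPM and 2.04, 1.61 and 2.31 CPM at 8 weeks. The log2 fold change was 0.11 ± 0.394 at 3 weeks (adjusted p = 0.907), 1.91 ± 0.302 at 8 weeks (adjusted p = 9.11e-05) and 2.88 ± 0.269 at 16 weeks (adjusted p = 8.22e-08). Zbp1, which binds nucleic acids in the Z form and can trigger cell death (mm10 chr2:173206612-173218922, minus strand), read 12.7, 7.19 and 5.76 CPM in NOR and 0.865, 0.42 and 0.508 CPM in BALB/c at 8 weeks. At 16 weeks it read 10.7, 22.8 and 13.5 CPM and 1.19, 0.685 and 2.11 CPM. The lowest NOR library was above the highest BALB/c library by a wide margin, for log2 fold changes of 3.86 ± 0.427 (adjusted p = 1.9e-06) and 3.51 ± 0.353 (adjusted p = 1.94e-07). At 3 weeks, Zbp1 was at 0.5, 0.856 and 0.703 CPM in NOR and 0.109, 0.242 and 0.19 CPM in BALB/c and was not called (adjusted p = 0.146), whereas DESeq2 gave an adjusted p of 0.0446.

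Ifih1, the sensor of long double-stranded RNA (mm10 chr2:62595793-62646255, minus strand), was the 1 member called lower in NOR in any comparison of the strains, and only at 3 weeks. It read 5.07, 5.7 and 3.52 CPM in NOR and 12.1, 17.2 and 11 CPM in BALB/c at that age, a log2 fold change of -1.43 ± 0.177 (adjusted p = 1.03e-05). The highest NOR library was below the lowest BALB/c library, the call held whichever 1 library was left out (-1.56 to -1.23), and the value was -1.20 without the 3 parotid-rich libraries (adjusted p = 0.000959). At 8 weeks the values were 23.3, 21 and 20.2 CPM and 21.8, 20.2 and 21.1 CPM (0.03 ± 0.138, approximate 95% interval -0.24 to 0.30). At 16 weeks NOR read 18.5, 20 and 18.3 CPM and BALB/c 25.7, 21.2 and 28.8 CPM, lower in NOR by adjusted p alone (-0.42 ± 0.137, adjusted p = 0.0167). That last result did not pass without NOR replicate 3 or BALB/c replicate 3 of 16 weeks.

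The RIG-I gene Ddx58, a close relative, was not called at 3 weeks (-0.15 ± 0.184, adjusted p = 0.665) and 0.86 ± 0.16 and 0.70 ± 0.157 at 8 and 16 weeks (adjusted p = 0.000416 and 0.00105). Both genes are known interferon targets and are shown side by side because Ifih1 was called at 3 weeks and Ddx58 was not. The difference between the genes was not tested. A core of the interferon-stimulated response element, the letters GAAA, any 2 bases and GAAA again on either strand, lies just past the start of each in RefSeq (GRCm38.p6, both genes on the minus strand, chr4:40239804-40239833 for Ddx58 and chr2:62646206-62646235 for Ifih1), and its letters are in capitals.
Ddx58: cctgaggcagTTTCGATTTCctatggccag
Ifih1: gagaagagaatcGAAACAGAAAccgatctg
In Ddx58 the match, on the opposite strand, begins 2 bases after the start, and in Ifih1 it begins 32 bases after it. Of the 42 member windows, 3 held this core (7.14%; Ddx58, Ifih1 and Myd88), beside 3.44% of all windows, and 0 of the 14 members called higher at both ages did. The 2 other motifs searched on both strands were a STAT site (TTCNNNGAA), in 6 of 42 member windows and 8.30% of all, and an NF-κB site (GGG, any 2 bases and TTTCC), in 1 of 42 and 1.63% of all.

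Dhx58, the third RIG-I-like receptor, was called higher with 2.30 ± 0.347 at 8 weeks (adjusted p = 5.89e-05) and 1.68 ± 0.32 at 16 weeks (adjusted p = 0.000247). Mavs, the mitochondrial adaptor on which Ifih1 and Ddx58 converge, was lower by adjusted p alone. It was at -0.30 ± 0.0797 (adjusted p = 0.00843) and -0.69 ± 0.0806 (adjusted p = 1.09e-06) on the log2 scale at 8 and 16 weeks, with 29.8, 24.3 and 26 CPM in NOR and 41.4, 45.3 and 42.6 CPM in BALB/c at the later age. Its 8-week result did not pass without BALB/c replicate 2. The table carries the DNA sensor cGAS, whose older symbol Mb21d1 it lacks, under E330016A19Rik, a synonym in RefSeq, and that row read 2.16 to 2.98 CPM across the 6 libraries of 16 weeks (log2 fold change 0.22, adjusted p = 0.424).

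**Figure D5:**
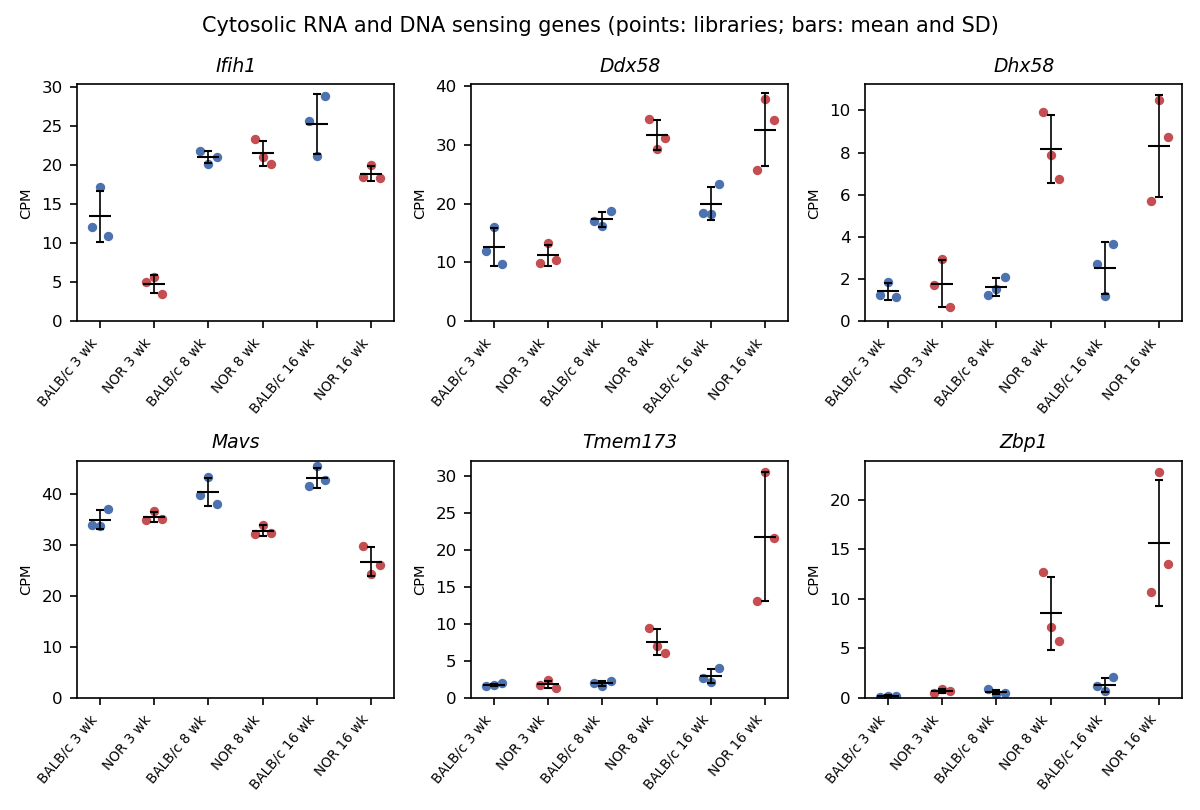
CPM of 6 genes of cytosolic RNA and DNA sensing in each library (points) with the group mean and SD (bars), where BALB/c is blue and NOR red and every axis starts at 0. Ifih1 in NOR is at 3.52 to 5.70 CPM at 3 weeks and 18.3 to 23.3 CPM later, Mavs in NOR falls below BALB/c at 8 and 16 weeks, and Tmem173 and Zbp1 are high in the NOR libraries of those ages.

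An interaction term tested whether the log2 fold change of NOR over BALB/c changed with age. Between 3 and 16 weeks it increased for 12 of the 40 members and decreased for 0, beside 10.7% of all genes called (7.51% up and 3.15% down). These were Tlr1, Tlr2, Tlr6, Tlr7, Tlr13, Unc93b1, Ticam2, Nlrc3, Casp1, Casp4, Tmem173 and Ifih1, the last of which went from lower in NOR to nearer BALB/c. Ticam2 and Casp4 passed the low-count filter only through NOR, so their calls are not separate support. The change was 2.77 ± 0.474 for Tmem173 (adjusted p = 0.000578), 2.58 ± 0.573 for Casp1 (adjusted p = 0.00369) and 2.37 ± 0.484 for Tlr13 (adjusted p = 0.00207). For Nlrc3 it was 4.59 ± 0.722 (adjusted p = 0.00031), or 3.98 without BALB/c replicate 1 of 3 weeks. Calls were lost on leaving out 1 library in 8 of 12 fits for Tlr2, 4 for Ticam2, 3 for Ifih1, 2 for Tlr6 and 1 each for Tlr1 and Casp4. Without the 3 parotid-rich libraries 8 members were called, and those lost were Tlr1 (adjusted p = 0.229), Tlr2 (0.147), Casp4 (0.0632) and Ifih1, at 0.80. The Ticam2 value was 1.80 without BALB/c replicate 1 and that of Casp4 1.75 without BALB/c replicate 3 of 3 weeks. Members such as Aim2, Zbp1 and Tlr9 had large differences at 16 weeks but so few counts at 3 weeks that the change could not be measured well, with standard errors of 1.96, 1.06 and 1.51. From 8 to 16 weeks 2 members passed, Casp1 (1.59 ± 0.435, adjusted p = 0.0324) and Unc93b1 (1.07 ± 0.308, adjusted p = 0.0401), beside 2.85% of all genes (2.04% up and 0.807% down). Both calls were fragile, lost in 8 and 9 of 12 fits without 1 library, with adjusted p up to 0.099 and 0.116.

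Within NOR, members rose in both intervals between the ages. Of those that passed the low-count filter only through NOR, Aim2, Casp4, Naip5, Nlrp1a, Nlrp3, Tlr9 and Tlr11 were called in both intervals. Naip2, Ticam2 and Tlr12 were called from 3 to 8 weeks only. These calls are part of the counts below and are not separate support. From 3 to 8 weeks 24 rose and 0 fell (12.2% of all genes called, 8.88% higher and 3.27% lower), among them Ifih1 (2.12 ± 0.171, adjusted p = 4.15e-08), Zbp1 (3.67 ± 0.458, adjusted p = 7.57e-06) and Ddx58 (1.49 ± 0.174, adjusted p = 3.71e-06). Pooling is described for the 8-week libraries and not for those of 3 weeks, so age and pooling cannot be told apart here. Without the parotid-rich libraries 22 members were called. From 8 to 16 weeks, 12 members rose and 0 fell (9.66% of all genes called, 8.88% higher and 0.778% lower), and the smallest p-values were those of Tlr1 (1.80 ± 0.272, adjusted p = 9.15e-05), Tmem173 (1.54 ± 0.246, adjusted p = 0.000145) and Unc93b1 (1.28 ± 0.207, adjusted p = 0.000166). That count rested on the 16-week libraries used, being 6 without NOR replicate 2 and 21 without NOR replicate 1. The calls of Nlrp3, Nlrp1a, Naip5, Tlr11, Nlrc3 and Tlr9 were lost without replicate 2. The 2 NOR comparisons share the 8-week libraries.

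In BALB/c LGs, 6 members rose and 1 fell from 3 to 8 weeks (6.95% of all genes called, 4.37% higher and 2.58% lower). As in NOR, age and pooling cannot be told apart between these ages. Tlr5 rose by 2.10 ± 0.391 (adjusted p = 0.000462) and Nlrc3 fell by 3.27 ± 0.573 on the log2 scale (adjusted p = 0.000261), and these 2 calls held without any 1 library, although Nlrc3 was at -2.68 without BALB/c replicate 1 of 3 weeks. The other 5, Aim2, Casp1, Naip5, Nod2 and Tlr11, were each lost in at least 1 such fit, and 2 calls in all were left without BALB/c replicate 3 of 3 weeks. Without the 3 parotid-rich libraries of 3 weeks 5 calls were left, those of Aim2 (adjusted p = 0.108) and Naip5 (0.0503) being lost. From 8 to 16 weeks 0 members were called in BALB/c, with edgeR and with DESeq2, beside 0.441% of all genes (0.426% higher and 0.015% lower). By edgeR's unadjusted p under 0.05, a looser rule, 6 of 40 members passed. That count cannot be set against the 0.441%, and the share of all genes by that rule is not given.

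Set per kilobase of exon, so that genes can be compared with each other, the order of TLR levels differed between the strains. In BALB/c LGs of 16 weeks Tlr4 led at 2.31 ± 0.159 CPM per kb (SD, n = 3), followed by Tlr3 at 1.64 ± 0.396, Tlr1 at 0.913 ± 0.296 and Tlr2 at 0.795 ± 0.365 CPM per kb. Tlr4 and Tlr3 lay further apart than their SDs, and Tlr1 and Tlr2 did not. In NOR of that age Tlr1 led at 7.01 ± 2.94 CPM per kb, ahead of Tlr2 at 3.49 ± 0.315, Tlr3 at 2.48 ± 0.13 and Tlr4 at 2.3 ± 0.306 CPM per kb. Next came Tlr7, Tlr13 and Tlr9 at 1.74 ± 0.372, 1.68 ± 0.387 and 1.61 ± 0.734 CPM per kb, which were within their SDs of each other, as were Tlr3 and Tlr4. Over all members Irak1 stood highest in BALB/c, at 44 ± 1.79 CPM per kb, and in NOR Irak1 at 34.6 ± 5.33 and Unc93b1 at 29.9 ± 9.68 CPM per kb did not differ beyond their spread. In BALB/c of the same age Unc93b1 was at 6.43 ± 1.44 CPM per kb.

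The 20 members under the filter comprised 8 inflammasome sensors and the 12 other NLRP genes, many of which are known from oocytes. No count was found in any of the 18 libraries for 11 of them: Naip7, Nlrp1c-ps, Nlrp2, Nlrp4a, Nlrp4b, Nlrp4e, Nlrp4g, Nlrp5, Nlrp9a, Nlrp9c and Nlrp14. At this depth that does not show absence. Summed over 3 libraries, Naip6 had 0, 2 and 2 counts in BALB/c and 0, 13 and 45 in NOR at 3, 8 and 16 weeks. Naip1 was counted 14 times in NOR at 16 weeks and once in BALB/c, and Nlrp10, which unlike the others lacks the leucine-rich repeats, had 35 and 11. Nlrp4f went the other way, with 8 counts in BALB/c and 0 in NOR at 16 weeks, after 5 and 6 at 8 weeks. The remaining 4, Nlrp6, Nlrp12, Nlrp4c and Nlrp9b, had 1 to 5 counts over all libraries.

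Other genes of these pathways were followed in lists made for comparison, and each count stands beside the 8.93% and 14.1% of all genes called higher at 8 and 16 weeks. Of 15 TLR accessory and trafficking genes, 8 were higher and 1 lower at both ages. Cd180, a TLR homologue of B cells, was higher in NOR by 3.06 ± 0.405 and 4.36 ± 0.352 on the log2 scale at 8 and 16 weeks (adjusted p = 1.41e-05 and 1.54e-08). Its partner Ly86 was higher by 2.69 ± 0.372 and 2.94 ± 0.323. Cathepsin S (Ctss), which cleaves endosomal TLRs, read 131 CPM in NOR beside 18.6 in BALB/c at 16 weeks (log2 fold change 2.80 ± 0.244, adjusted p = 3.62e-08). Of the 6 measured C-type lectin and formyl peptide receptors, all 6 were higher at 8 and at 16 weeks, with Clec12a at 2.99 ± 0.366, Clec7a, the β-glucan receptor, at 2.39 ± 0.364 and Clec4n at 1.52 ± 0.335 at 16 weeks (adjusted p = 2.04e-06, 2.44e-05 and 0.000929).

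Of 11 inflammasome partners and effectors, 5 were higher at 8 weeks and 7 at 16 weeks and 0 were lower. Gasdermin D (Gsdmd), the pore-forming target of Casp1 and Casp4, was higher in NOR by 1.67 ± 0.33 and 2.64 ± 0.291 on the log2 scale at 8 and 16 weeks (adjusted p = 0.00074 and 5.68e-07). Pstpip1, a pyrin-binding protein, was at 3.66 ± 0.482 and Casp8 at 1.07 ± 0.142 at 16 weeks (adjusted p = 4.73e-06 and 5.23e-06). Among 11 inhibitors of the pathway, 5 and 6 were higher, including Tnip1, which restrains NF-κB and was called at all 3 ages (1.00 ± 0.188, 1.49 ± 0.164 and 2.20 ± 0.157; adjusted p = 0.000943, 1.66e-06 and 4.12e-09). The 3-week value of Tnip1 stood at the cutoff, and it was 1.32 without the parotid-rich libraries (adjusted p = 0.00252). Il18bp, which neutralises the inflammasome product interleukin-18, and Dok3 were at 2.82 ± 0.274 and 3.33 ± 0.352 at 16 weeks (adjusted p = 1.31e-07 and 3.51e-07).

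All 12 interferon-stimulated genes of the list were higher at 8 weeks and 11 at 16 weeks, while 1 was higher and 1 lower at 3 weeks, or 0 and 0 without the parotid-rich libraries (Ifi27l2a at 1.60, adjusted p = 0.052, and Ifi44 at -1.76, adjusted p = 0.172). Their median log2 fold change was -0.36 at 3 weeks, 2.02 at 8 weeks and 1.69 at 16 weeks. Bst2, a virus tether, was at 1.82 ± 0.239 and 2.02 ± 0.229, Mx1 at 3.38 ± 0.445 and 2.57 ± 0.366, and Ifit3 at 3.49 ± 0.462 and 2.92 ± 0.437 at 8 and 16 weeks (largest adjusted p = 2.03e-05). Of 20 other nucleic acid sensors and nucleases, 14 were higher at each of the 2 ages and 0 lower. Dnase1l3, a secreted DNase, had a mean of 12.4 CPM in NOR and of 0.105 in BALB/c at 16 weeks (log2 fold change 6.74 ± 0.607, adjusted p = 5.41e-08). The BALB/c mean lies under the level of 3 counts in each of those libraries (0.143, 0.228 and 0.144 CPM), so the size of the difference is not well measured. Samhd1, which depletes deoxynucleotides, was at 2.07 ± 0.219 (adjusted p = 3.45e-07) and Mndal, of the same interferon-inducible family as Aim2, at 2.51 ± 0.262 (adjusted p = 2.96e-07), although reads shared with near copies make its count uncertain. Of 20 genes that signal below the adaptors, 3 were higher at 8 weeks and 4 at 16 weeks and 0 were lower. Irf5, a transcription factor used by TLRs, was at 2.92 ± 0.283 (adjusted p = 1.23e-07) at 16 weeks. Irf3, which acts below Sting and Mavs, was lower by adjusted p alone at 3, 8 and 16 weeks, at -0.46 ± 0.0773, -0.50 ± 0.0739 and -0.57 ± 0.0744 (adjusted p = 0.000362, 4.68e-05 and 4.23e-06; -0.51 at 3 weeks without the parotid-rich libraries, adjusted p = 0.0168), and Chuk, a kinase of the NF-κB pathway, was at -0.61 ± 0.0839 (adjusted p = 7.38e-06) at 16 weeks.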

How the data were processed

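RNA-seq was made from exorbital LGs of male NOR/LtJ and BALB/cJ mice (18 libraries, 3 per group), from poly(A) RNA with a stranded kit and single reads of 50 bases. The values are raw counts per gene, which the authors made by aligning reads with HISAT2 to mm10 and counting exons with featureCounts 1.6.2 before the table was deposited. No strand option is given in their command, so overlapping antisense genes cannot be told apart, and none to count reads that match several places, which are then left out by default. Genes with low counts were removed (filterByExpr of edgeR 4.0.16, minimum count 10 and total 15), which left 13376 genes. The quasi-likelihood test of edgeR was fitted to all 18 libraries with 1 mean per group and TMM scaling in R 4.3.3, and the Benjamini-Hochberg adjustment covered all genes tested. The standard error is the absolute log2 fold change over the square root of F. P-values measure the spread between these libraries. An exact permutation test of 3 against 3 libraries cannot go below 0.1, so none is given. The common biological coefficient of variation was 13.8%. On data simulated for the 16-week comparison over 13056 genes, 96 of 100 genes changed by a factor of 4 were called, 84 of 100 changed by a factor of 2 passed the adjusted p, and 1 unchanged gene was called. The changed genes were drawn only from those above a minimum mean count. Scarce members such as Nlrp3, Tlr11, Tlr12, Nlrc4 and Nlrp1a lie below it, so these rates do not apply to them.

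The members and gene lists were chosen with earlier results of these data known. Every member is accounted for. Values in each library are given for the 12 called members with the smallest p at 16 weeks, those called lower or called at 3 weeks, and Tlr3, Tlr7, Tlr9, Myd88, Ticam1 and Unc93b1, and up to 3 genes with the smallest p at 16 weeks are named from each pathway list. Nlrc3, Nlrp3, Mavs, Tlr11, Tlr12 and the gene E330016A19Rik were given library values, and Ifi27l2a and Ifi44 were named, after their results were seen. Alternatives tried were a DESeq2 fit (version 1.42.0), edgeR scaled by size factors of DESeq2, TMM computed without the 20 most abundant genes, no filter, a filter at a mean of 1 CPM, only the compared groups in the fit, a replicate block, no fold-change cutoff, each library left out and, added after seeing the data, the 3 parotid-rich libraries of 3 weeks left out. Promoter sequences are those of RefSeq for GRCm38.p6, the assembly of mm10. No column of the table was left out.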

Additional observations from a re-analysis of the deposited data

Results flagged for a closer look

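The results singled out are those in which the difference between NOR and BALB/c at one age differed from that at another, by the interaction term of edgeR's quasi-likelihood fit. From 3 to 16 weeks the log2 difference grew by 4.59 for Nlrc3, 2.77 for Tmem173, 2.58 for Casp1, 2.52 for Ticam2, 2.42 for Casp4, 2.37 for Tlr13, 2.13 for Tlr1, 1.75 for Tlr7, 1.71 for Unc93b1, 1.60 for Tlr6, 1.36 for Tlr2 and 1.01 for Ifih1. Ifih1 differs from the other 11 in that it was lower in NOR at both ages and by less at 16 weeks, whereas Nlrc3 passed from a lower value in NOR, not called, to a higher one. From 8 to 16 weeks it grew by 1.59 for Casp1 and by 1.07 for Unc93b1. Markers of B and T cells rose over the same ages in NOR, and their part in these results was not tested.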

How the results depend on the processing

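Counts of members called at 8 and 16 weeks, in the change from 3 to 16 weeks and in NOR from 3 to 8 weeks stayed within a factor of 1.5 under every alternative that keeps all libraries. At 3 weeks 2 members were called, or 5 with no fold-change cutoff, and 1 each with a mean CPM of at least 1, with only the groups compared and without the 3 parotid-rich libraries. In NOR from 8 to 16 weeks 12 members were called, or 19 with no fold-change cutoff. In BALB/c from 3 to 8 weeks 7 were called, or 14 with no fold-change cutoff and 4 with only the groups compared. The change from 8 to 16 weeks gave 2 calls, or 0 with only the groups compared. The cause of these moves was not tested, beyond the wider rule where no fold-change cutoff was set. With each library left out in turn, the counts ran from 1 to 2 at 3 weeks, 17 to 21 at 8 weeks, 23 to 27 at 16 weeks, 9 to 18 for the change from 3 to 16 weeks, 0 to 6 for that from 8 to 16 weeks, 24 to 25 and 6 to 21 for NOR from 3 to 8 and from 8 to 16 weeks, and 2 to 7 and 0 to 0 for BALB/c. The strain comparisons and their changes with age held 62 calls of members. Of 888 single alternatives to these, 819 kept the call, 69 lost it and 0 changed direction. Of the 62 calls, 16 were lost in at least 1 alternative and 46 in none. A further 26 results passed by adjusted p alone. For these, 322 of 382 alternatives kept the result, 60 weakened it and 0 reversed it, and 18 of the 26 changed in at least 1. Calls between ages within a strain were not in this tally. Libraries with the same number came from different animals, so they were not treated as pairs. Their deviations had a median r of 0.125 (-0.362 to 0.395 over 45 pairs). For libraries with other numbers the median r was -0.0824 (-0.475 to 0.39 over 90 pairs). With a replicate block the change from 8 to 16 weeks gave 0 calls, and the counts were 21 at 8 weeks and 24 at 16 weeks. Depth limits members near 3 counts per library, which include Aim2, Naip5, Nlrp1a, Nlrp3, Tlr11 and Tlr12 in both strains at 3 weeks.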
